A study of Mus musculus with 2 samples.

Results

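The 10 genes described here make enzymes and a chaperone that modify, fold and crosslink collagen, out of 33696 genes in the count matrices. They are the lysyl oxidases Lox, Loxl1, Loxl2 and Loxl3, the lysyl hydroxylases Plod1 and Plod2, the prolyl 4-hydroxylase subunits P4ha1, P4ha2 and P4hb, and the chaperone Serpinh1. They were taken as a list of names, and all 10 had counts in both libraries. Single-cell transcriptomes came from solid tumours of the ID8 model, a mouse ovarian cancer line that grows in the peritoneal cavity. The first library held chemoresistant tumours, whose label gives cisplatin as the treatment, and the second held primary tumours that were treatment naïve. In both groups fresh ovarian tumour tissue was minced, digested with collagenase, freed of red cells and pooled before droplet capture with 3' chemistry, so single animals cannot be told apart. The strain, the age and the number of mice, and the dose and timing of cisplatin, are not given in the sources used here.

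Each group is thus 1 library with no replicate, so no test was possible and no p-value is given. Levels are UMI counts (counts of tagged transcript molecules) summed over the cells of a class and scaled to a total of 1000000 (CPM), with exact Poisson 95% intervals that cover counting error only. A difference is given as a fold of the CPM values with its exact 95% counting interval. A gene was counted as higher or lower past 1.5-fold, on the log2 scale after adding 1 CPM, where it had at least 10 CPM in either of the groups compared. In summed counts, fewer cells that carry a transcript and fewer transcripts per cell cannot be told apart.

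Collagen chains are hydroxylated on prolines and lysines while they are made in the endoplasmic reticulum, and hydroxyproline keeps the triple helix stable at body temperature. Serpinh1 binds the folded helix until it leaves the endoplasmic reticulum. Outside the cell, lysyl oxidases convert lysines and hydroxylysines into aldehydes, which then form the covalent crosslinks that stiffen the matrix around tumours. Several of these genes, P4ha1, P4ha2, Plod2 and Lox among them, are known from human cells to be induced by low oxygen.

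Cell classes were set by marker counts in which none of the 10 genes took part, with limits chosen after marker values had been seen. Tumour cells (keratin-positive, nearly free of fibrillar collagen transcripts) numbered 3378 in the chemoresistant and 831 in the primary library, at a median of 21094 and 32502 UMIs. Collagen-rich cells, positive for collagen and Spp1 and short of fibroblast markers, numbered 303 in the chemoresistant library and 6 in the primary one. Fibroblasts numbered 3 in the chemoresistant and 129 in the primary library. Cells called mesothelial by their markers and by low Spp1, after the lining of the peritoneal cavity, numbered 50 and 128. Collagen-rich cells and fibroblasts are therefore each described in 1 library and are not compared between libraries. Of 10 fibroblast markers, 10 reached 10 CPM in primary fibroblasts and 4 in collagen-rich cells, where the fibroblast gene Dpt stood at 0.175 CPM against 587 CPM in primary fibroblasts. Collagen-rich cells also held 10 of 16 tumour epithelial markers at 10 CPM or more, summed to 1893 CPM over all 16. In leukocyte classes of the same library 8 to 11 reached that level, summed to 580 to 1436 CPM, so the count does not set collagen-rich cells apart. The X-linked RNA Xist stood at 96.9 CPM in collagen-rich cells, beside 114 CPM in chemoresistant tumour cells and 903 CPM in primary fibroblasts. Collagen-rich cells are therefore called by their collagen content and given no cell type name. The mesothelial list did not part mesothelial from tumour cells, since 10 of its 10 genes reached 10 CPM in chemoresistant and 9 in primary tumour cells, and it was the collagen limit that separated them. The 16 tumour epithelial markers summed to 3918 CPM in chemoresistant and 3328 CPM in primary mesothelial cells, beside 4969 and 5391 CPM in tumour cells. Xist stood at 334 and 477 CPM in mesothelial and at 114 and 232 CPM in tumour cells. Mesothelial thus names the marker rule, and whether tumour cells are among them was not tested. The libraries shared 52 barcodes, which included 11 chemoresistant and 4 primary tumour cells and 1 collagen-rich cell.

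Lox (ENSMUSG00000024529, mm10 chr18:52516067-52529867), which oxidises lysines of collagen and elastin, was carried by collagen-positive classes in both libraries. In primary tumour cells its summed level was close to that of B-lineage cells. In the chemoresistant library it stood at 179 CPM (168 to 190) in collagen-rich cells and 54.5 CPM (40.9 to 71.1) in mesothelial cells, against 21.1 CPM (20.2 to 22.1) in tumour cells. In the primary library it stood at 485 CPM (454 to 518) in fibroblasts and 210 CPM (195 to 226) in mesothelial cells, against 2.31 CPM (1.81 to 2.91) in tumour cells. Primary fibroblasts thus held 210-fold the level of primary tumour cells (165 to 271; 112-fold, 52.8 to 285, with every cell thinned to 2000 UMIs and 7 tumour UMIs left), and collagen-rich cells 8.47-fold the level of chemoresistant tumour cells (7.84 to 9.15). B-lineage cells, which should lack Lox, had 7.11 CPM (4.68 to 10.3) in the chemoresistant and 2.05 CPM (1.37 to 2.94) in the primary library. In the chemoresistant library 21 of their 27 Lox UMIs lay in 1 cell, which also had 230 UMIs of Col1a1, Col1a2 and Col3a1, and without it the level was 1.59 CPM (0.584 to 3.47). Chemoresistant T cells had 21.7 CPM (11.6 to 37.1), with 11 of their 13 Lox UMIs in 1 cell, and primary T cells 2.38 CPM (1.09 to 4.52). Chemoresistant neutrophils had 0 Lox UMIs, which allows up to 7.15 CPM. In the primary library 9 of the 29 B-lineage Lox UMIs lay in 1 cell, which had 199 UMIs of Col1a1, Col1a2 and Col3a1. Without it the level was 1.41 CPM (0.864 to 2.19). With or without that cell, the intervals of primary B-lineage and tumour cells overlap. After thinning every cell to 2000 UMIs, 24.9% of collagen-rich cells (20.1 to 30.2%) and 3.47% of tumour cells (2.87 to 4.16%) of the chemoresistant library had a Lox UMI, beside 0.483% of its B-lineage cells. In the primary library the thinned shares were 47.6% of fibroblasts (38.7 to 56.7%), 27.6% of mesothelial cells and 0.864% of tumour cells, beside 0.0826% of B-lineage cells. By this share primary tumour cells stood above B-lineage cells, on 7 tumour UMIs. Without thinning, 18.9% of chemoresistant and 5.78% of primary tumour cells had a Lox UMI.

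Loxl1 (ENSMUSG00000032334, chr9:58287738-58313186), needed for elastic fibres, was the lysyl oxidase least raised in collagen-rich cells. It stood at 49.1 CPM (43.5 to 55.2) in collagen-rich and 107 CPM (87.6 to 129) in mesothelial cells, against 34.0 CPM (32.8 to 35.2) in tumour cells of the chemoresistant library. In the primary library it stood at 436 CPM (406 to 467) in fibroblasts and 281 CPM (263 to 299) in mesothelial cells, against 31.8 CPM (29.9 to 33.9) in tumour cells. Its collagen-rich level was 1.44-fold that of tumour cells (1.27 to 1.63), within the 1.5-fold limit, while the primary fibroblast level was 13.7-fold that of tumour cells (12.5 to 15.1). Among chemoresistant classes Loxl1 was the member that stood lower in collagen-rich than in mesothelial cells past 1.5-fold, by 2.18-fold (1.73 to 2.73).

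Loxl2 (ENSMUSG00000034205, chr14:69609068-69695834), which crosslinks basement membrane collagen as well as fibrillar collagen, spread more evenly over the classes. It stood at 130 CPM (121 to 140) in collagen-rich, 85.8 CPM (68.5 to 106) in mesothelial and 51.5 CPM (50.03 to 53.0) in tumour cells of the chemoresistant library. Primary values were 173 CPM (154 to 193) in fibroblasts, 223 CPM (207 to 240) in mesothelial cells and 73.5 CPM (70.5 to 76.6) in tumour cells. Of these 3 primary classes mesothelial cells thus held the highest level, with intervals that did not overlap, while the 28 primary mural cells (pericytes and smooth muscle by their markers) stood higher still, at 440 CPM (386 to 499). Loxl3 (ENSMUSG00000000693, chr6:83034173-83052562), a close relative of Loxl2, was the member with the largest fold between collagen-rich and tumour cells. It stood at 50.1 CPM (44.5 to 56.3) in collagen-rich cells, against 2.36 CPM (2.06 to 2.71) in chemoresistant tumour cells, a fold of 21.2 (17.7 to 25.5). Mesothelial cells of the chemoresistant library had 7.06 CPM of it (2.84 to 14.6, 7 UMIs), and in the primary library it stood at 25.9 CPM (19.0 to 34.4) in fibroblasts, 15.0 CPM (11.1 to 19.8) in mesothelial cells and 5.43 CPM (4.64 to 6.31) in tumour cells. Loxl3 overlaps the protein-coding gene Htra2 on the other strand, and the sources used here do not say whether counting used strand.

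**Figure D1:**
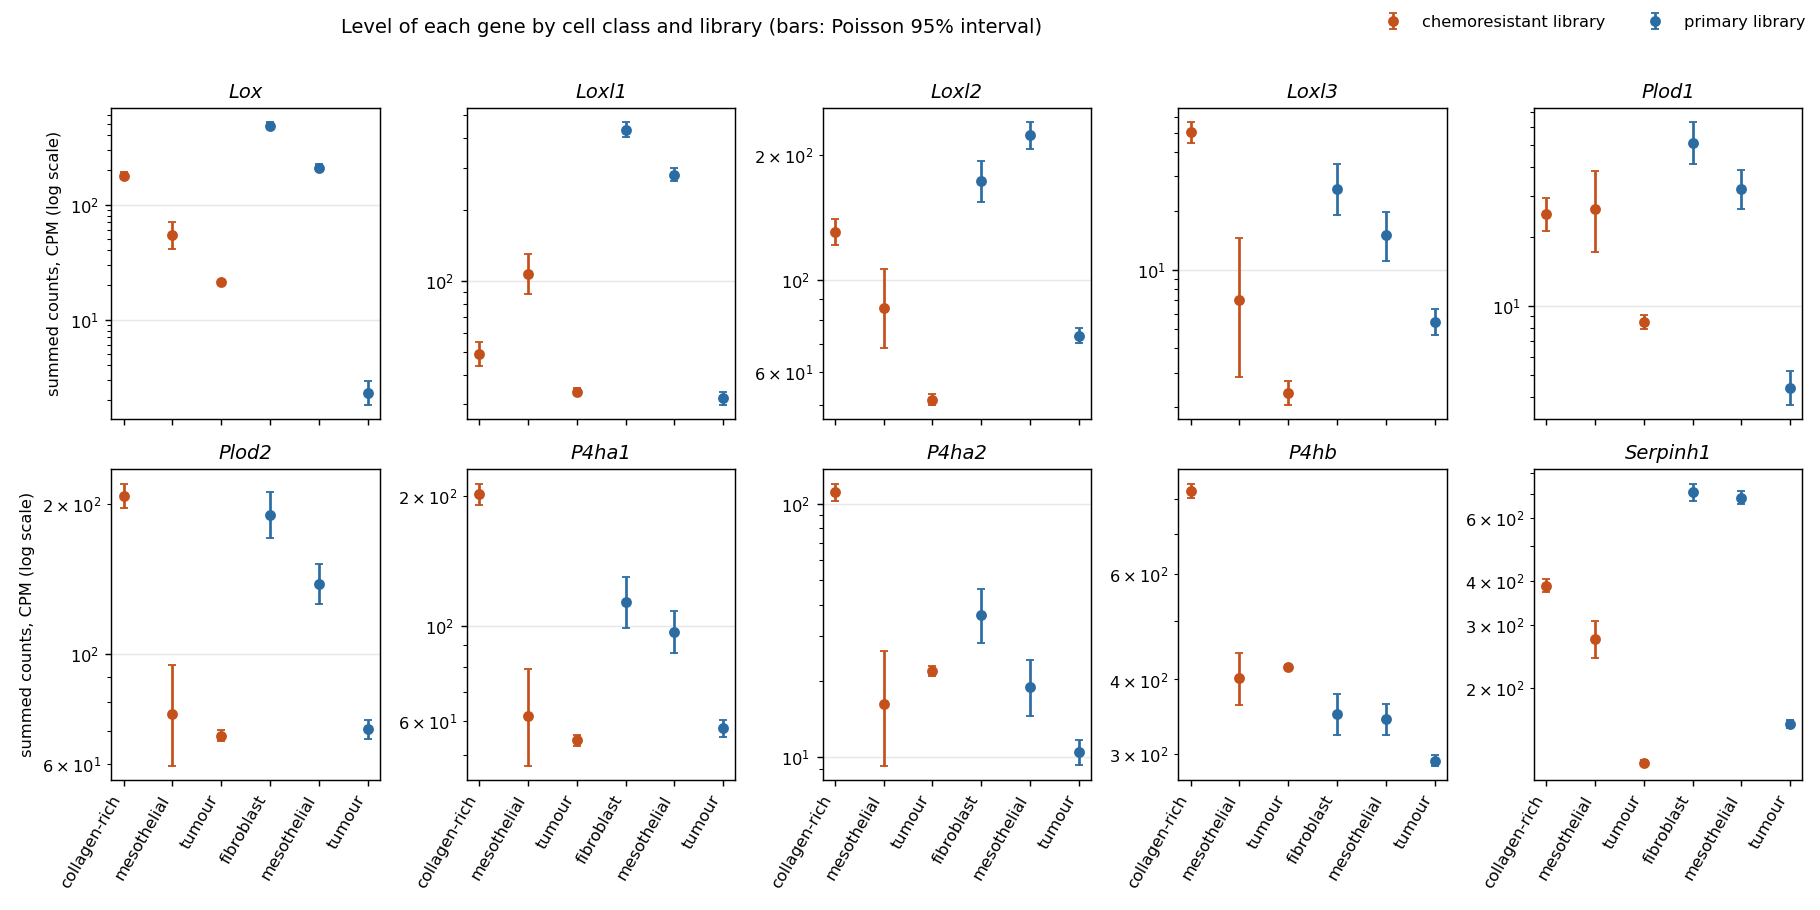
Level of each of the 10 genes in CPM (log axis, own range per gene) in collagen-rich, mesothelial and tumour cells of the chemoresistant library (orange) and in fibroblasts, mesothelial and tumour cells of the primary library (blue), with exact Poisson 95% intervals as bars. Lox in primary tumour cells, at 2.31 CPM, lies far below its other levels, while P4hb lies between 293 and 826 CPM in these 6 groups.

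The lysyl hydroxylases differed in where they were found. Plod2 (ENSMUSG00000032374, chr9:92542223-92608428) hydroxylates lysines in the telopeptides at the ends of collagen chains, which sets the type of crosslink. It stood at 208 CPM (196 to 220) in collagen-rich, 75.7 CPM (59.5 to 94.9) in mesothelial and 68.4 CPM (66.7 to 70.2) in tumour cells of the chemoresistant library. Primary levels were 190 CPM (170 to 211) in fibroblasts, 138 CPM (126 to 151) in mesothelial cells and 70.5 CPM (67.6 to 73.5) in tumour cells. Collagen-rich cells and primary fibroblasts thus had intervals that overlap, as had chemoresistant mesothelial cells and tumour cells. Plod1 (ENSMUSG00000019055, chr4:147909753-147936767), which hydroxylates lysines within the helix, was low in tumour cells, with 8.51 CPM (7.92 to 9.14) in the chemoresistant and 4.40 CPM (3.70 to 5.20) in the primary library. It stood at 25.1 CPM (21.1 to 29.5) in collagen-rich and 26.2 CPM (17.1 to 38.4) in chemoresistant mesothelial cells, and at 51.2 CPM (41.3 to 62.7) in fibroblasts and 32.1 CPM (26.3 to 38.8) in mesothelial cells of the primary library. Mononuclear phagocytes held more Plod1 than these classes, with 66.7 CPM (63.9 to 69.5) in the chemoresistant and 69.3 CPM (66.3 to 72.3) in the primary library, though the primary fibroblast interval came near. T and B-lineage cells held between 3.34 and 6.58 CPM.

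P4ha1 (ENSMUSG00000019916, chr10:59323296-59373304) and P4ha2 (ENSMUSG00000018906, chr11:54100095-54131665) are alternative catalytic subunits of the prolyl 4-hydroxylase, and both were highest in collagen-rich cells among the 6 groups of the level plot. P4ha1 stood at 202 CPM (191 to 214) in collagen-rich, 61.5 CPM (47.1 to 79.1) in mesothelial and 54.0 CPM (52.5 to 55.6) in tumour cells of the chemoresistant library, and at 113 CPM (98.5 to 130) in fibroblasts, 96.7 CPM (86.5 to 108) in mesothelial cells and 57.7 CPM (55.0 to 60.4) in tumour cells of the primary one. It was also plain in leukocytes, with 91.2 CPM in chemoresistant and 122 CPM in primary mononuclear phagocytes, and 145 CPM (114 to 182) in chemoresistant and 211 CPM (191 to 234) in primary neutrophils. P4ha2 stood at 111 CPM (103 to 120) in collagen-rich, 16.1 CPM (9.23 to 26.2) in mesothelial and 21.9 CPM (21.0 to 22.9) in tumour cells of the chemoresistant library, and at 36.3 CPM (28.1 to 46.2) in fibroblasts, 18.9 CPM (14.5 to 24.2) in mesothelial cells and 10.4 CPM (9.34 to 11.6) in tumour cells of the primary one. For P4ha2 the mesothelial intervals of the 2 libraries overlap, and the chemoresistant one also overlaps that of chemoresistant tumour cells. P4hb (ENSMUSG00000025130, chr11:120560298-120573253), the other subunit of the enzyme and a general protein disulfide isomerase, varied least among the 6 groups of the level plot. It stood at 826 CPM (803 to 850) in collagen-rich, 402 CPM (363 to 443) in mesothelial and 419 CPM (415 to 424) in tumour cells of the chemoresistant library, and at 350 CPM (323 to 378) in fibroblasts, 343 CPM (323 to 364) in mesothelial cells and 293 CPM (287 to 299) in tumour cells of the primary one. The intervals of primary fibroblasts and mesothelial cells overlap, as do those of chemoresistant mesothelial and tumour cells.

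Serpinh1 (ENSMUSG00000070436, chr7:99345376-99353239), the collagen chaperone also called HSP47, was higher in the collagen-positive classes than in tumour cells. It stood at 387 CPM (371 to 404) in collagen-rich, 274 CPM (243 to 309) in mesothelial and 123 CPM (121 to 126) in tumour cells of the chemoresistant library. In the primary library it stood at 708 CPM (670 to 747) in fibroblasts and 682 CPM (654 to 711) in mesothelial cells, whose intervals overlap, and at 159 CPM (154 to 163) in tumour cells. After thinning to 2000 UMIs, 51.9% of collagen-rich cells (46.0 to 57.7%) and 22.3% of chemoresistant tumour cells (20.9 to 23.7%) had a Serpinh1 UMI, beside 1.77% of the B-lineage cells of that library.

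Counted together, 9 of 10 members were past 1.5-fold higher in collagen-rich than in chemoresistant tumour cells, where 15.6% of all genes were, and 0 were lower (24.2% of all genes). The exception was Loxl1. The members' median log2 ratio was 1.61, beside -0.16 over all 9208 genes compared. In the primary library 9 of 10 were higher in fibroblasts than in tumour cells (26.7% of all genes higher, 30.4% lower) and 9 of 10 in mesothelial than in tumour cells (21.4% higher, 23.8% lower), with 0 members lower. The exception in both was P4hb, at 1.20-fold (1.10 to 1.30) and 1.17-fold (1.10 to 1.25). Chemoresistant mesothelial cells stood less apart, with 5 of 9 members higher than in tumour cells (16.6% of all genes higher, 11.8% lower), namely Lox, Loxl1, Loxl2, Plod1 and Serpinh1. Fibroblasts had 5 of 10 members higher than mesothelial cells of the primary library (20.6% of all genes), Lox at 2.31-fold (2.09 to 2.55) being the largest, and 0 lower (19.3% of all genes). Collagen-rich cells had 7 of 10 members higher than chemoresistant mesothelial cells (13.1% of all genes), led by Loxl3 at 7.10-fold (3.40 to 17.8, from 7 UMIs in mesothelial cells) and P4ha2 at 6.88-fold (4.21 to 12.1), and 1 lower (25.4% of all genes).

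**Figure D2:**
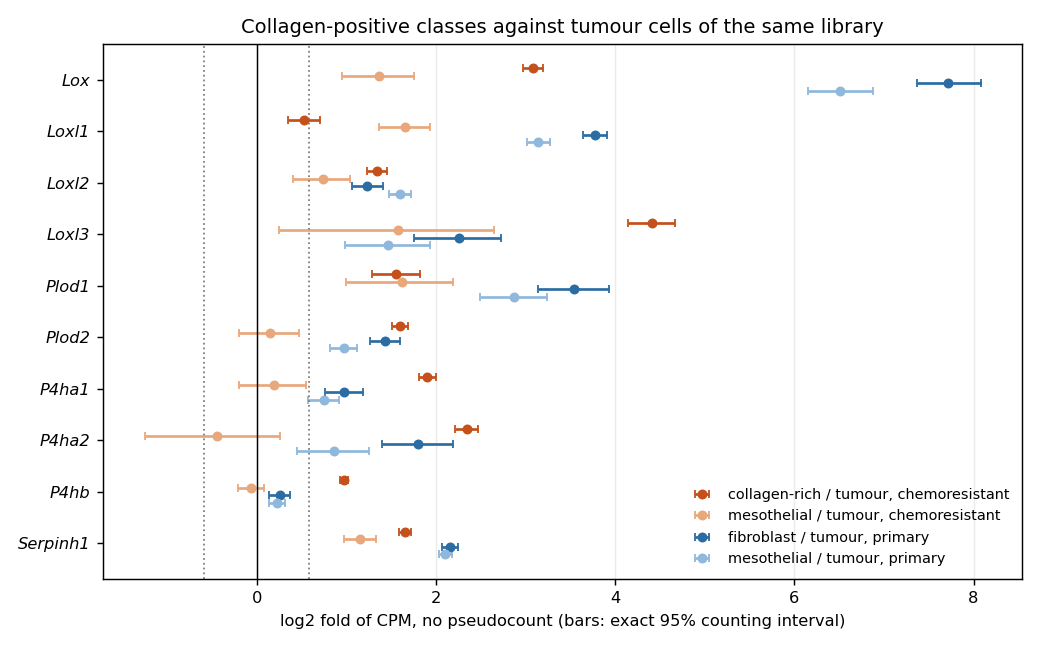
Log2 fold of the CPM values, with no pseudocount, of collagen-rich and mesothelial cells over chemoresistant tumour cells (orange) and of fibroblasts and mesothelial cells over primary tumour cells (blue), with exact 95% counting intervals and the 1.5-fold limits dotted. Lox lies farthest right in the primary comparisons (210-fold in fibroblasts), Loxl3 in the collagen-rich one (21.2-fold), and P4hb stays near 0 in all but the collagen-rich comparison.

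Other genes of the collagen pathway were compared in the same classes. Over all genes 15.6% were higher and 24.2% lower in collagen-rich than in tumour cells. Of 12 other modifying and folding genes compared, 9 were past 1.5-fold higher and 1 lower in collagen-rich than in tumour cells, with a median log2 ratio of 0.70. P3h3, a prolyl 3-hydroxylase family member, had 51.9 CPM in collagen-rich and 2.88 CPM in tumour cells, and Crtap, a partner of the prolyl 3-hydroxylase complex, 87.5 and 35.3 CPM, while the related P3h4 was the lower one with 75.0 and 139 CPM. Of 9 genes of collagen secretion and trimming, 4 were higher and 1 lower, with the procollagen proteinase Adamts2 at 48.7 CPM in collagen-rich and 5.44 CPM in tumour cells. Their median log2 ratio was 0.47, within the 1.5-fold limit, beside 1.61 for the members. All 6 fibrillar collagen genes compared were higher, 3 of which had set the class. In primary fibroblasts over tumour cells the counts were 9 higher and 1 lower of 11 modifying and folding genes, and 8 higher and 1 lower of 11 secretion and trimming genes, with Adamts2 at 633 CPM in fibroblasts and 5.43 CPM in tumour cells. Over all genes 26.7% were higher and 30.4% lower there. Of 6 crosslink substrates and partners compared in collagen-rich over tumour cells, 4 were higher, with the proteoglycan Lum, which binds collagen fibrils, at 217 and 1.25 CPM. Eln, which encodes elastin, was the lower one, at 13.0 CPM in collagen-rich and 55.0 CPM in tumour cells.

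Between the libraries, chemoresistant tumour cells had 2 of 8 members past 1.5-fold higher than primary tumour cells (6.11% of all genes) and 0 lower (14.4% of all genes). Lox had 1878 UMIs in chemoresistant and 72 UMIs in primary tumour cells, and the levels of 21.1 and 2.31 CPM differed by 9.14-fold (7.22 to 11.7). With every cell thinned to 2000 UMIs, 141 and 7 UMIs remained and the fold was 4.97 (2.35 to 12.6). P4ha2 differed by 2.10-fold (1.87 to 2.37), with 21.9 CPM in chemoresistant and 10.4 CPM in primary tumour cells. The other 6 lay within 1.5-fold, from P4hb at 1.43-fold higher (1.40 to 1.47) through Loxl1 at 1.07-fold (0.995 to 1.15) and Plod2 at 0.971-fold (0.924 to 1.02) to Loxl2 at 1.43-fold lower (1.36 to 1.501). Serpinh1 was 1.29-fold lower (1.24 to 1.33). Thinning took P4hb past the limit, at 1.66-fold higher (1.497 to 1.85). Plod1 and Loxl3 stayed under 10 CPM in both libraries and were not counted, at 1.93-fold higher (1.61 to 2.34) and 2.30-fold lower (1.86 to 2.83). After thinning, Loxl3 had 23 chemoresistant and 5 primary UMIs, a fold of 1.14 (0.422 to 3.82). The median log2 ratio of the 8 members was 0.03, beside -0.15 over all 9198 genes compared. Of the wider lists, 0 of 10 modifying and folding genes were higher and 1 lower, 0 of 9 secretion and trimming genes higher and 2 lower, and the fibrillar collagens stayed under 10 CPM in both libraries. The list of 12 hypoxia-response genes did differ, with 6 of 11 compared higher and 0 lower.

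Several members also stood higher in leukocytes of the chemoresistant library, together with markers of other cell types. Mononuclear phagocytes had 4 of 7 members higher (8.1% of all genes) and 0 lower (18% of all genes), namely Plod2 at 16.4 CPM in the chemoresistant and 4.39 CPM in the primary library, Serpinh1 at 36.03 and 13.4 CPM, Loxl2 at 11.6 and 4.55 CPM, and P4ha2 at 13.5 and 5.55 CPM. Lox stood at 9.59 CPM (8.56 to 10.7) in chemoresistant and 3.29 CPM (2.67 to 4.01) in primary phagocytes, under the 10 CPM minimum. In the same phagocytes the 16 tumour epithelial markers summed to 1031 CPM in the chemoresistant and 375 CPM in the primary library, with 10 and 8 of them at 10 CPM or more and Cldn6 at 0 in both. The 10 mesothelial markers summed to 343 and 89.8 CPM, with 9 and 2 at 10 CPM or more, and 3 of 3 fibrillar collagens compared were higher, while the fibroblast markers summed to 252 and 226 CPM. B-lineage cells had 2 of 3 members higher (8.03% of all genes), P4hb and Serpinh1, and 0 lower (11% of all genes). Without the cell that held 21 Lox UMIs 1 member, Serpinh1, was higher, and the share of all genes was not taken again. Their tumour epithelial markers summed to 580 CPM in the chemoresistant and 457 CPM in the primary library. The part of free RNA, doublets and these markers in the leukocyte values was not tested.

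Mesothelial cells went the other way, with 7 of 10 members past 1.5-fold lower in the chemoresistant than in the primary library (19.9% of all genes) and 0 higher (13.7% of all genes). Lox was 3.86-fold lower (2.92 to 5.19), at 54.5 CPM in chemoresistant and 210 CPM in primary mesothelial cells. Loxl1 was 2.63-fold lower (2.15 to 3.24), Loxl2 2.60-fold (2.07 to 3.29), Serpinh1 2.49-fold (2.19 to 2.83), Plod2 1.83-fold (1.43 to 2.36) and P4ha1 1.57-fold lower (1.19 to 2.10). Doublet removal with Scrublet, tried as an alternative, took out 11 of the 50 chemoresistant and 4 of the 128 primary cells. The P4ha1 log2 ratio was then -0.51 in place of -0.64, within the 1.5-fold limit. With cells thinned to 2000 UMIs, Plod2 was 5.27-fold lower (1.68 to 26.6) on 3 chemoresistant and 41 primary UMIs, and P4ha1 4.63-fold lower (1.15 to 40.4) on 2 and 24 UMIs. Thinning moved Loxl2 the other way, to 1.74-fold lower (0.863 to 3.86) on 10 and 45 UMIs, an interval that reached no difference. Lox was then 5.11-fold lower (1.88 to 19.5), Loxl1 2.42-fold (1.27 to 5.07) and Serpinh1 2.56-fold (1.68 to 4.07). Loxl3 was 2.13-fold lower on 7 and 50 UMIs, and its interval, 0.960 to 5.56, reached no difference. After thinning Loxl3 was 1.35-fold lower (0.257 to 13.3) on 2 and 7 UMIs, within the 1.5-fold limit. P4hb was 1.17-fold higher (1.04 to 1.31), and P4ha2 and Plod1 lay at 1.17-fold lower (0.669 to 2.17) and 1.23-fold lower (0.792 to 1.96). Thinned, P4ha2 was 3.47-fold lower on 1 and 9 UMIs, and Plod1 1.03-fold lower on 3 and 8 UMIs. At a limit of 2-fold in place of 1.5-fold, 4 members were lower, and the share of all genes was not taken at that limit. Much of the collagen pathway stood lower too, with 7 of 11 modifying and folding genes and 6 of 6 fibrillar collagens lower. Of 12 secretion and trimming genes 6 were lower and 1 higher. Col1a1 stood at 523 CPM in chemoresistant and 1738 CPM in primary mesothelial cells, and Col3a1 at 512 and 2970 CPM. Col1a1, Col1a2, Col3a1 and Spp1 took part in setting the class. Collagen-positive cells that reached the Spp1 limit were kept out of it. Collagen-rich cells, which reached that limit, numbered 303 in the chemoresistant and 6 in the primary library. In the chemoresistant library 7 of 10 members were higher and 1 lower in collagen-rich than in mesothelial cells. The part of the Spp1 limit in the mesothelial difference was not tested. Other values differed between the mesothelial groups of the libraries too. The matrix protein gene Mgp stood at 733 CPM in the 50 chemoresistant and 4996 CPM in the 128 primary cells. The keratin gene Krt19 stood at 899 and 381 CPM, and the mesothelial marker Upk3b at 668 and 339 CPM. Whether both groups hold the same kinds of cell, and whether tumour cells are among them, was not tested.

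**Figure D3:**
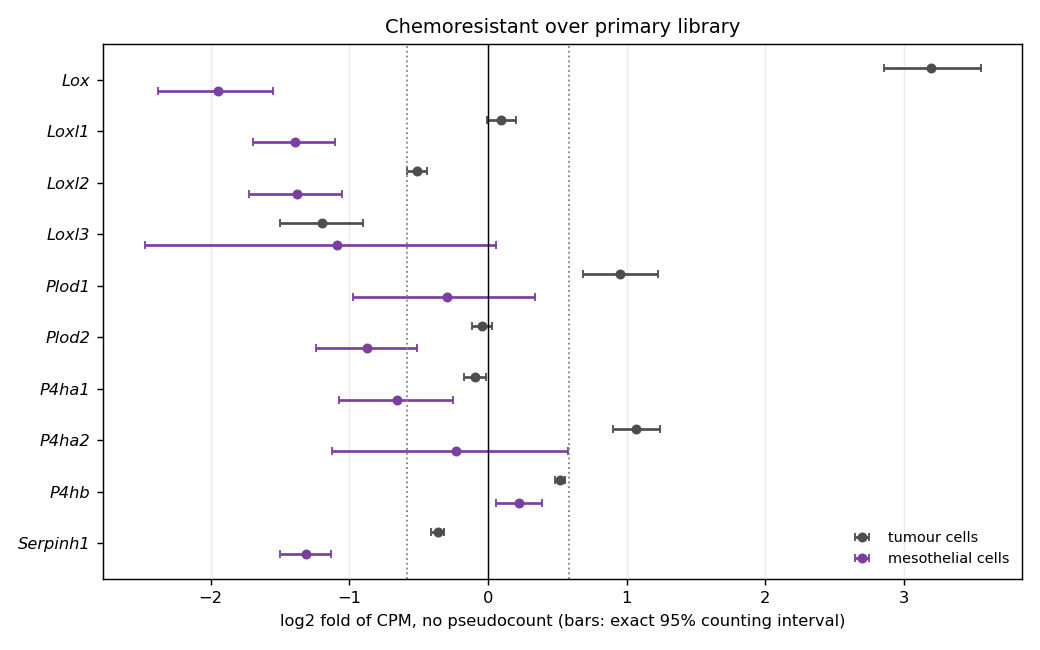
Log2 fold of the CPM values, chemoresistant over primary, with no pseudocount, in tumour cells (grey) and mesothelial cells (purple), with exact 95% counting intervals and the 1.5-fold limits dotted. Lox lies at 9.14-fold in tumour cells and on the opposite side in mesothelial cells, where it was 3.86-fold lower.

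Lox and P4ha2, the members past 1.5-fold higher in tumour cells of the chemoresistant library, were concentrated in part of the cells. Of its 3378 tumour cells 637 had a Lox UMI and 190 had at least 3. The 5% of cells richest in each gene held 67.8% of the 1878 Lox UMIs and 51.9% of the 1947 P4ha2 UMIs, beside 29.2% of the 3020 Loxl1 UMIs, a share that also grows as counts become sparse. To describe the subset, tumour cells of both libraries were ranked together by the summed share of the 12 hypoxia-response genes, which include Bnip3, Ero1a, Vegfa, Slc2a1, Car9 and Ldha and none of the members, and cut into tertiles at 15.4 and 25.4 UMIs per 10000, a comparison that was added later, with the data in view. The low, middle and high tertile held 927, 1244 and 1207 chemoresistant and 476, 159 and 196 primary tumour cells.

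Both prolyl 4-hydroxylase catalytic subunits, P4hb, Plod2 and Loxl2 stood past 1.5-fold higher in the high than in the low tertile of both libraries, and Lox of the chemoresistant one. P4ha2 stood at 4.34, 5.75 and 56.9 CPM in the low, middle and high tertile of chemoresistant tumour cells, and at 2.38, 2.96 and 37.5 CPM in primary ones. High over low was 13.1-fold (10.7 to 16.3) in the chemoresistant and 15.8-fold (11.4 to 22.4) in the primary library, so P4ha2 followed the hypoxia list in both. P4ha1 stood at 29.2, 23.8 and 113 CPM in chemoresistant and 39.1, 36.02 and 124 CPM in primary cells, Plod2 at 40.3, 33.4 and 136 CPM and 60.5, 52.4 and 112 CPM, and Loxl2 at 31.7, 29.7 and 95.7 CPM and 42.0, 53.3 and 171 CPM. P4hb, at 295, 323 and 644 CPM in chemoresistant and 240, 263 and 452 CPM in primary cells, differed by 2.18-fold (2.12 to 2.24) and 1.88-fold (1.80 to 1.97) between high and low. For P4ha1, P4ha2, Plod2 and P4hb the low and middle tertile lay close together and the high one apart. Serpinh1 was flat, at 123, 123 and 125 CPM in chemoresistant and 155, 166 and 162 CPM in primary cells, and Loxl1 was 0.838-fold (0.761 to 0.923) in the chemoresistant and 1.21-fold (1.04 to 1.40) in the primary library. Plod1 and Loxl3 stayed under 10 CPM in every tertile.

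Lox was the member for which the libraries parted. It stood at 5.37, 5.12 and 54.5 CPM in the low, middle and high tertile of chemoresistant tumour cells, and at 1.41, 3.43 and 3.55 CPM in primary ones. High over low was 10.2-fold (8.43 to 12.3) in the chemoresistant and 2.51-fold (1.38 to 4.56) in the primary library, where Lox stayed under the 10 CPM minimum. After thinning, the log2 ratio of high over low was 2.36 in place of 3.12 in the chemoresistant and -0.36 in place of 0.92 in the primary library. The high tertile held 83.3% of the Lox UMIs of chemoresistant tumour cells and 34.7% of the 72 UMIs of primary ones. Within the high tertile Lox was 15.3-fold higher in the chemoresistant than in the primary library (10.4 to 23.8), within the low tertile 3.79-fold (2.45 to 6.09) and within the middle one 1.49-fold (0.957 to 2.44). For scale, chemoresistant B-lineage cells had 7.11 CPM, or 1.59 CPM without the 1 cell named above, so whether the chemoresistant low and middle tertiles stand above that level turns on this cell. The high tertile stands above it either way. Chemoresistant mononuclear phagocytes had 9.59 CPM of Lox, or 8.56 CPM without their cell richest in it. T cells of that library had 21.7 CPM (11.6 to 37.1), with 11 of 13 UMIs in 1 cell. The low and middle tertiles stood below both levels and the high tertile above them. P4ha2 within the high tertile was 1.52-fold higher (1.33 to 1.73), while P4ha1 was 0.912-fold (0.846 to 0.984) and Loxl2 0.559-fold (0.523 to 0.599). Ncam1, an adhesion molecule, was also concentrated in the high tertile, at 176 CPM in its chemoresistant and 2.98 CPM in its primary cells, and Spp1 stood at 372 and 137 CPM. Col1a1, which the tumour class rule kept low, stood at 7.28 CPM in the high and 3.58 CPM in the low tertile of the chemoresistant library. With every tumour cell that had a UMI of Col1a1, Col1a2 or Col3a1 left out, 6 members again stood past 1.5-fold higher in the high than in the low tertile of the chemoresistant library. The share of all genes was not taken again for these cells.

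**Figure D4:**
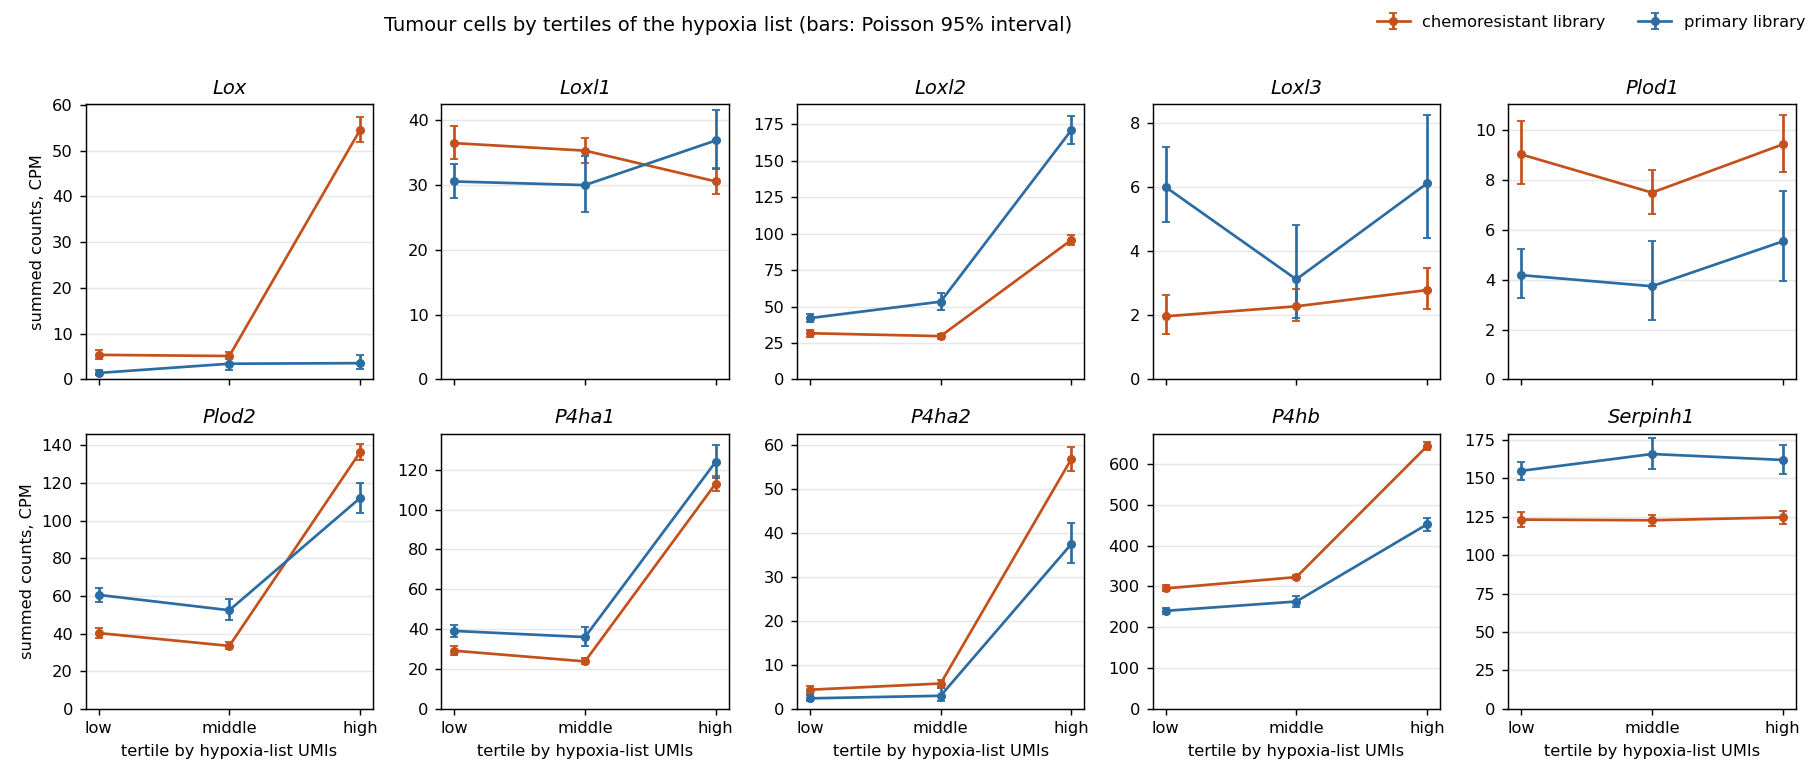
Level of each gene in CPM (linear axis from 0) in the low, middle and high tertile of tumour cells by the summed hypoxia-response genes, in the chemoresistant (orange) and primary (blue) library, with exact Poisson 95% intervals. P4ha1, P4ha2, P4hb, Plod2 and Loxl2 stand high in the high tertile of both libraries, Lox stands at 54.5 CPM in the high tertile of the chemoresistant library and 3.55 CPM in that of the primary library, and Serpinh1 is flat.

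Among genes compared, 6 of 8 members were past 1.5-fold higher in the high than in the low tertile of chemoresistant tumour cells (5.46% of all genes), and 5 of 7 in the primary library (3.74% of all genes), with 0 lower in both (21% and 13.8% of all genes). The median log2 ratio of the members was 1.65 in the chemoresistant and 0.91 in the primary library, beside -0.21 and -0.15 over all genes compared outside the hypoxia list. At a limit of 2-fold 3 members were higher in the primary library, and the share of all genes was not taken at that limit. Cells with many transcripts of the hypoxia list differ from the rest in other ways too, and cell position and oxygen were not measured.

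Promoter windows are shown for the prolyl 4-hydroxylase genes, which moved with the hypoxia list, and for Serpinh1, which did not. Each runs from 250 bases before to 50 after the gene's RefSeq start, on the gene's strand from 5′ to 3′, as RefSeq gives it on GRCm38.p6. Windows for 5 of the 10 members were at hand. Capitals mark ACGTG or GCGTG, the core letters that hypoxia-inducible factors are known to bind, or their complements CACGT and CACGC where they lie on the opposite strand. The windows lie at chr10:59323046-59323345 (plus strand) for P4ha1, chr11:54100674-54100973 (plus strand) for P4ha2, chr11:120573204-120573503 (minus strand) for P4hb and chr7:99353190-99353489 (minus strand) for Serpinh1.
P4ha1: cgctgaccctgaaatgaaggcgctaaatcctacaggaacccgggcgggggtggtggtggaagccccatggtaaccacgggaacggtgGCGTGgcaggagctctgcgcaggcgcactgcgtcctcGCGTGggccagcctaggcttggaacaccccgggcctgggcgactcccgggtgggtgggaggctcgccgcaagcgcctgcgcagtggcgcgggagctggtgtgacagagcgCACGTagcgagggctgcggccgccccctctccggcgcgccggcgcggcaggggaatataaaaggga
P4ha2: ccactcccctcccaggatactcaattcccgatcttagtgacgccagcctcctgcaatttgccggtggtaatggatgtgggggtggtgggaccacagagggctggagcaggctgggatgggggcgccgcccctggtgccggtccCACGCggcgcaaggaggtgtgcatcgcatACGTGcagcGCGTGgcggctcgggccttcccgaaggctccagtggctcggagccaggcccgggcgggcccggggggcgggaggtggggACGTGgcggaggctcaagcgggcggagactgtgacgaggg
P4hb: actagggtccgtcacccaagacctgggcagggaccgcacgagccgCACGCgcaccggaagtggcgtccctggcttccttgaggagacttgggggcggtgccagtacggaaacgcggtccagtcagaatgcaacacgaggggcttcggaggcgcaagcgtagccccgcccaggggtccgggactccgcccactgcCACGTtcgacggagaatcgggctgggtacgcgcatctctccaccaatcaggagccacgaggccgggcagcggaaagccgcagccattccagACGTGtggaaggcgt
Serpinh1: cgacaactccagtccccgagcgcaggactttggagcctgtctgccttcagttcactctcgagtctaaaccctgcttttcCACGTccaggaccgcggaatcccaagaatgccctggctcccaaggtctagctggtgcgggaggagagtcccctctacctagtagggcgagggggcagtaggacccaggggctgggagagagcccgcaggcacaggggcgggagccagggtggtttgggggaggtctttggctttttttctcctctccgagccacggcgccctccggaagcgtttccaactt
P4ha1 held 3 matches, with their first bases at -163, -126 and -16 from the start, P4ha2 held 4 at -107, -78, -69 and 11, and P4hb held 3 at -205, -56 and 36. Serpinh1 held 1, at -171, and Plod1, which stayed low in every tertile, held 2. Of 32851 windows of the same length 43.8% held at least 1 match on either strand and 8.93% at least 3. The P4ha2 window lies wholly inside the gene as GENCODE places it (chr11:54100095-54131665), because its RefSeq start lies downstream of the GENCODE start. These are matches of letters, not measured binding.

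Collagen-rich cells were divided in the same manner by their own Col1a1, Col1a2 and Col3a1 content into tertiles of 101 cells, which the class rule had not set. Serpinh1 stood higher where collagen was higher, with 280 CPM (259 to 303), 400 CPM (372 to 430) and 533 CPM (497 to 571) in the low, middle and high tertile, and Loxl1 stood at 33.9, 47.2 and 74.2 CPM. Loxl3 stood at 36.9, 52.5 and 67.0 CPM and Plod2 at 182, 201 and 253 CPM. Lox ran the other way, with 216 CPM (198 to 236), 162 CPM (145 to 182) and 144 CPM (126 to 164), as did P4hb with 975, 762 and 682 CPM. P4ha1 and P4ha2 stood at 216, 196 and 190 CPM and at 123, 101 and 105 CPM. The hypoxia list ran with Lox and P4hb, at a median of 68.8, 49.4 and 33.1 UMIs per 10000, and depth ran the same way, at a median of 18388, 15797 and 12001 UMIs. Their part in the Lox and P4hb values was not tested.

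The levels of the 10 genes were also compared with those of all other genes over 15 class and library pairs of at least 50 cells, as Pearson correlations of log2(CPM + 1). These pairs share libraries and differ in depth, so the values only describe likeness. Serpinh1 was most like Sparc (r = 0.987), which encodes a collagen-binding matrix protein, and Loxl1 most like Dcn (0.982), which encodes the proteoglycan decorin. Loxl2 was most like Fbln2 (0.984), Plod2 most like Ube2e2 (0.968), P4hb most like Cd63 (0.951), Lox most like Prrx2 (0.934), Plod1 most like Stx2 (0.932), P4ha2 and Loxl3 most like Porcn (0.931 and 0.891), and P4ha1 most like Cd44 (0.859). Among the members themselves, Loxl2 and Serpinh1 were the closest pair (0.957), and P4ha1 and Loxl2 the most distant (0.0307).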

How the data were processed

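The deposited files give raw UMI counts for each gene in each barcode, which the authors made with Cell Ranger 8.0.1 on mm10, per the submitters' processing notes. The chemoresistant library held 16390 barcodes and 158118781 UMIs, the primary library 14390 barcodes and 141334623 UMIs, and filters of at least 500 UMIs, at least 250 genes and at most 20% mitochondrial UMIs left 14908 and 12824 barcodes. Per 10000 UMIs, collagen-positive cells had at least 5 UMIs (and at least 3 in all) of Col1a1, Col1a2 and Col3a1 and under 10 of 7 leukocyte markers. Among them fibroblasts had at least 4 of 8 fibroblast markers, mesothelial cells at least 3 of 9 mesothelial markers and under 1 Spp1 UMI, and collagen-rich cells at least 1 Spp1 UMI. Tumour cells had under 3 collagen UMIs, at least 1 keratin UMI and at least 3 of 16 epithelial markers. Cells with at least 3 endothelial, enterocyte, acinar or adipocyte markers were left out, and doublets were otherwise removed only as an alternative, with Scrublet in scanpy 1.11.5.

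Counts were summed per class and library. Intervals are exact Poisson, conditional binomial and, for shares, Clopper-Pearson intervals (scipy 1.17.1), and cover counting error only. Shares of cells used cells thinned to 2000 UMIs. The 1.5-fold rule was tested on simulated summed counts with known folds, while the summing and the coverage of the intervals were not. The text names all 10 members, plus pathway genes from fixed lists. The members, the lists and the limits were chosen with earlier results of these data known. Gene positions are from GENCODE vM21. The alternatives tried were other scalings, filters, pseudocounts, class limits and doublet removal.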

Additional observations from a re-analysis of the deposited data

Results flagged for a closer look

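Lox was singled out because its difference between the libraries had opposite signs in 2 cell classes. The log2 ratio of chemoresistant over primary, after adding 1 CPM, was 2.74 in tumour cells and -1.93 in mesothelial cells. Lox stood at 21.1 CPM in chemoresistant and 2.31 CPM in primary tumour cells, and at 54.5 CPM in chemoresistant and 210 CPM in primary mesothelial cells. With 1 library per group the difference between the classes was not tested. Cells that reached the Spp1 limit were kept out of the mesothelial class, and the part of that limit was not tested.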

How the results depend on the processing

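No paired analysis was possible because each group is 1 library and no replicate could be left out. Of the counts of members past the limit, 159 stayed within 1.5 times the reported count under the alternatives and 3 did not. The values themselves moved more: 96 of 120 shares of cells left their interval, all 60 unthinned shares upward and 36 of 60 shares at 1000 UMIs downward, and 206 of 1141 other values (ratios, medians and counts of the wider lists) moved past theirs or past 1.5 times, 50 of them under thinning. With no filter on low values 1 member, Loxl3, was lower in chemoresistant than in primary tumour cells, against 0. With a limit of 2-fold 4 members were lower in mesothelial cells, against 7, and 3 members were higher in the high than in the low hypoxia-list tertile of primary tumour cells, against 5. The share of all genes was not taken again under the alternatives. No called ratio changed sign. The Lox log2 ratio in tumour cells ran from 1.34 (10 CPM added in place of 1) to 2.90 (median-of-ratios size factors), over 14 settings, and in mesothelial cells from -2.33 to -1.66. P4ha2 in tumour cells ran from 0.64 to 1.30. Thinning the mesothelial cells to 2000 UMIs, which leaves few counts in 49 and 127 cells, moved Plod2 to -2.36 and P4ha1 to -2.16. It moved Loxl2 to -0.79 and Loxl3 to -0.42, the latter within the 1.5-fold limit. Doublet removal took 11 of 50 chemoresistant and 4 of 128 primary mesothelial cells and moved P4ha1 to -0.51, also within that limit. The tumour classes differ in depth (medians of 21094 and 32502 UMIs), and Loxl3 and Plod1 are too low there for a firm ratio. Leaving out tumour cells with a collagen UMI, the B-lineage cell richest in Lox, and the alternatives run on the hypoxia-list tertiles were chosen after seeing the data.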
